A study of Mus musculus with 8 samples.

Results

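The genes described here are 30 loci of blood stem and progenitor cells (15 genes) and of the red cell and platelet lineages (15 genes), chosen by name for their textbook roles. The choice was made with earlier results of these data known. Chromatin accessibility around them was compared between pro-B cells given dTAG-13, a compound meant to degrade their tagged EBF1, and cells given DMSO. A region was counted for a gene when that gene had the protein-coding span nearest to the region's centre, within 100 kb, among 21896 protein-coding genes of the RefSeq table of GRCm38.p6. This gave 95 of the 54239 regions of the EBF1-dTAG_C line (57 of stem and progenitor genes, 38 of erythroid and megakaryocyte genes) and 113 of the 55193 regions of the EBF1-dTAG_N line (73 and 40). Nearness does not show that a region acts on the gene, and the gene table gives spans without exons or introns.

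The cells were mouse pro-B cells transformed by Abelson murine leukaemia virus, in which the endogenous EBF1 had been replaced by a modified gene introduced from outside. Both lines, EBF1-dTAG_C and EBF1-dTAG_N, carry such an EBF1, to which their names give the dTAG degron, a tag that dTAG-13 links to the cell's degradation machinery; there was no line with untagged EBF1, and how many clones each line comprises is not stated. Cells of both lines received either DMSO, the solvent, or dTAG-13 at 0.5 uM, and were collected 6 h later (the titles call the DMSO samples 0 h), which makes 4 groups of 2 libraries and 8 libraries in all. ATAC-seq, in which the transposase Tn5 cuts and tags open DNA, was used, and the authors' peak lists hold 34202 to 42139 peaks per library with an unknown depth in reads. The lists after dTAG-13 were the shorter ones in both lines (34202 and 34382 against 40440 and 42139 in EBF1-dTAG_C, 35851 and 39721 against 40166 and 41613 in EBF1-dTAG_N). The loss of EBF1 protein cannot be read from these data.

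The label of the cells was checked on marker genes. All 8 B lineage markers had a peak within the gene or close to it in all 8 libraries, with 39 to 46 peaks summed per library. Of 5 T lineage markers none did (0 to 1 peaks summed), and of 6 myeloid, 6 erythroid and 6 megakaryocyte markers 1 each did (2 to 7, 1 to 4 and 1 to 3 peaks summed). The megakaryocyte marker among these was Pf4, whose peak lay beyond the gene and not within it. Mpo and Elane (myeloid), Hba-a1 and Alas2 (erythroid), and Gp1bb and Ppbp (megakaryocyte) had no peak within the gene or close to it in any library. Others of the same lists did, with peaks at Itgam, Klf1 and Pf4 in all 8 libraries and at Itga2b in 7. The 1 region assigned to Gp1bb lay further outside its gene and had a peak in all 4 lists of each line. The myeloid gene Csf1r had 2 to 3 peaks in each EBF1-dTAG_C library and 0 in each EBF1-dTAG_N library, so the lines differed there.

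EBF1 is a DNA-binding factor that commits lymphoid progenitors to the B cell fate. In stem cells and in erythroid and megakaryocytic progenitors, a shared set of factors (TAL1, LYL1, LMO2, GATA2 and GATA1 with its cofactor FOG1, encoded by Zfpm1) sits on common enhancers, together with the repressor GFI1B. Genes of these other lineages are normally held inactive in B cell precursors, although some of them stay accessible in them. Accessibility of a region reports open chromatin, not transcription of the gene.

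The starts of the genes are shown first, since they fix where the other regions lie. RefSeq promoter windows, from 250 bases before a start to 50 after it, were found for 24 of the 30 members. At 3 of 12 stem genes (Flt3, Hhex and Lyl1) and 3 of 12 erythroid and megakaryocyte genes (Gfi1b, Tfrc and Zfpm1) the window held a peak in all 8 libraries. That is 25% in either list, against 28.6% of all 27025 genes with a window. Epor had a peak at its start in 3 lists and Gata1 in 1. The remaining 16 members with a window had no peak there in any of the 8 lists (9 of 12 stem, 7 of 12 erythroid and megakaryocyte), as had 65.2% of all genes, so the members' starts were open about as often as those of all genes. The 250 bases before the start are printed for Zfpm1, Gfi1b and Hhex, whose starts were open in every library while regions around them changed in both lines. They are also printed for Gata1 and Mecom, the 2 members that hold the letters bound by EBF1 in these 250 bases. Capitals mark any match, on either strand, to the EBF1 palindrome or to the core letters of GATA, E-box, ETS and RUNX motifs, which are spelled out after the sequences. All are read 5′ to 3′ in the direction of the gene.
Zfpm1, plus strand, chr8:122281891-122282140: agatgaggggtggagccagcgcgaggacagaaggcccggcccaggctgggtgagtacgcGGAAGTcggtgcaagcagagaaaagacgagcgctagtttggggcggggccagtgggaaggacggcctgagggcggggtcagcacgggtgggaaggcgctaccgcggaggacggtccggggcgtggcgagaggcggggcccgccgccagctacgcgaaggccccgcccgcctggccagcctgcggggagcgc
Gfi1b, minus strand, chr2:28621983-28622232: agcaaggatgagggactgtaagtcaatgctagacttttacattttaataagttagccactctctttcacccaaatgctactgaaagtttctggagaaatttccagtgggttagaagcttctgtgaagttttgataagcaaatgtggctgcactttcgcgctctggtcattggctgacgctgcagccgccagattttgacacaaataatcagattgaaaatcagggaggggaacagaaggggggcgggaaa
Hhex, plus strand, chr19:37434591-37434840: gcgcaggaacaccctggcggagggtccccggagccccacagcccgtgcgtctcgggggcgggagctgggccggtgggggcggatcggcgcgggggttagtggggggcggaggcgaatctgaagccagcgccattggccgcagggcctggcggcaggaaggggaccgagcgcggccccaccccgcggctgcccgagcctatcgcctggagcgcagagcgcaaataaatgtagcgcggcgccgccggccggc
Gata1, minus strand, chrX:7967911-7968160: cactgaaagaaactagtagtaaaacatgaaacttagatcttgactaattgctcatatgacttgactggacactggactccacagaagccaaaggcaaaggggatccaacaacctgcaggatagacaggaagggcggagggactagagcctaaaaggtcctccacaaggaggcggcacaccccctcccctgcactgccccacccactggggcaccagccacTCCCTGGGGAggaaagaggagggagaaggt
Mecom, minus strand, chr3:30013205-30013454: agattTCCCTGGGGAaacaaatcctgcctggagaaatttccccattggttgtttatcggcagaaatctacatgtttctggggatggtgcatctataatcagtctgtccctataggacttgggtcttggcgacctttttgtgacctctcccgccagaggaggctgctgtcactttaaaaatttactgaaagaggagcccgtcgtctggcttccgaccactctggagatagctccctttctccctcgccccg

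In these sequences the capitals are a GGAAGT 191 to 186 bases before the Zfpm1 start, the EBF1 letters TCCCTGGGGA 30 to 21 bases before the Gata1 start, and the same letters 245 to 236 bases before this Mecom start. The bases printed for Gfi1b and Hhex hold none of the 6 motifs. Only the 250 bases before the start were searched in each window, not the 50 after it. The EBF1 letters stood in 2 of the 29 member windows and in 0.779% of all 32851 windows. Their 2 holders, Gata1 and Mecom, had a peak at the start in 1 of 8 lists and in none. Of the shorter motifs, the GATA letters AGATAA stood in 4 member windows (9.99% of all windows), the E-box CAGCTG in 3 (13%) and the E-box CAGATG in 5 (14.4%). The ETS letters GGAAGT stood in 6 (19.7%) and the RUNX letters TGTGGT in 3 (14.0%). Matches of different motifs were counted separately, whether or not they overlapped. A match of letters is a description and not evidence of binding.

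Changes were then read from the authors' deposited table of each line, which compares dTAG-13 with DMSO and holds 1 log2 fold change, 1 mean abundance and 1 adjusted p-value per region, with no value per library. A region is said to have fallen or risen where its deposited adjusted p-value is under 0.05. Among the 15 named erythroid and megakaryocyte genes a larger share of regions fell than among all regions in both lines, most of them at Zfpm1 and Gfi1b. The 15 named stem and progenitor genes had few falls in EBF1-dTAG_C. Longer lists of the same lineages, given below, had another order. In EBF1-dTAG_C, 10 of 38 erythroid and megakaryocyte regions fell (26.3%), against 6.62% of all regions, and 1 of 57 stem and progenitor regions fell (1.75%). No erythroid and megakaryocyte region rose in the authors' deposited edgeR test, also at an unadjusted p under 0.05, and 1 stem region rose (1.75%), where 0.308% of all regions rose. At least 2-fold, the same 10 and 1 fell (6.13% of all regions) and none rose (0.14% of all regions). With the folds centred on the table's median, 11 and 1 fell (7.39% of all regions) and none rose (0.162% of all regions). The median log2 fold change was -0.36 for erythroid and megakaryocyte regions, 0.11 for stem and progenitor regions and 0.09 for all regions of the EBF1-dTAG_C table.

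The EBF1-dTAG_N table calls far more regions in all. There, 18 of 40 erythroid and megakaryocyte regions fell (45%) against 18.5% of all regions, and 3 rose (7.50%) against 18.8% of all regions. Of 73 stem and progenitor regions, 11 fell (15.1%) and 19 rose (26%). At least 2-fold, 14 and 9 fell (14.9% of all regions), and 0 and 6 rose (5.13% of all regions). The medians were -0.30, 0.24 and 0.17 for erythroid and megakaryocyte, stem and progenitor, and all regions. The share of falls among all calls of this table depends on its zero: 49.5% of the calls were falls as deposited and 72.2% with the folds centred on the table's median. With that centring 20 erythroid and megakaryocyte regions fell and 2 rose (20.8% and 7.98% of all regions), and 13 stem and progenitor regions fell and 12 rose. The deposited p-values of EBF1-dTAG_N correspond to 110386 denominator degrees of freedom and those of EBF1-dTAG_C to 11.2, so p-values cannot be set side by side across the tables. The 4 libraries of a line cannot give 110386 at a single region, so the spread behind the EBF1-dTAG_N p-values is pooled over regions. How that table was fitted is not stated. Its very small p-values, and calls made in EBF1-dTAG_N alone, are to be read with that reserve. With the F values referred to the EBF1-dTAG_C test's fewer degrees of freedom, 16 erythroid and megakaryocyte and 9 stem and progenitor regions fell (40% and 12.3%). Under the same setting 2 and 15 rose (5% and 20.5%), where 16.3% of all regions fell and 12.4% rose. This setting keeps the F values as deposited, so it does not bring in a spread per region.

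**Figure D1:**
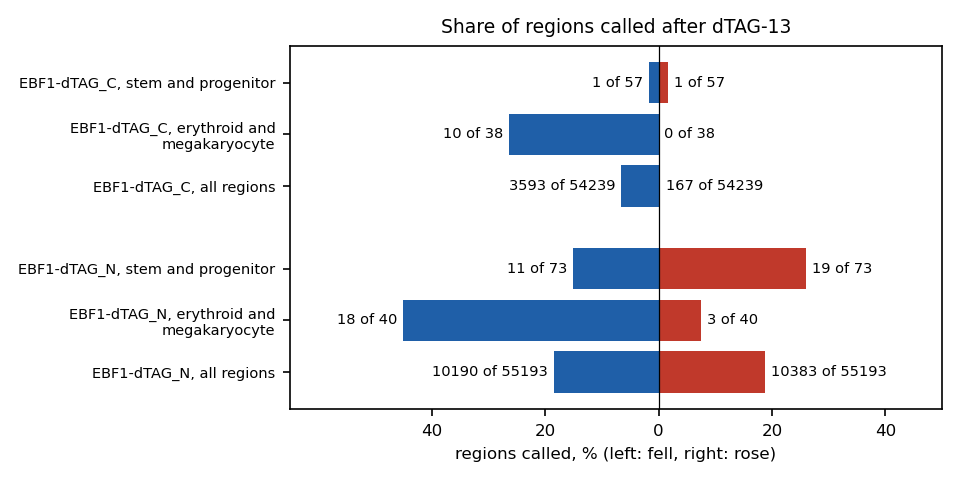
Share of regions that fell (left, blue) and rose (right, red) after dTAG-13 in the authors' deposited tables, in % of the regions of each list, for both lines; the numbers give called regions of all regions. Falls make up 26.3% and 45% of erythroid and megakaryocyte regions, above the 6.62% and 18.5% of all regions.

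A pair of genes held most of the falling erythroid and megakaryocyte regions. Zfpm1 and Gfi1b together had 7 of the 10 falls in EBF1-dTAG_C and 11 of the 18 in EBF1-dTAG_N. Without them 3 of 21 regions fell in EBF1-dTAG_C (14.3%), with a median of -0.08, and EBF1-dTAG_N kept 7 falls among 18 regions (38.9%), with a median of 0.08. By gene, a fall was found at 5 of 12 erythroid and megakaryocyte genes with a region in EBF1-dTAG_C, and at 6 of 11 genes in EBF1-dTAG_N. For stem and progenitor genes this was 1 of 12 and 5 of 12. Over all genes with a region it was 16.3% and 34.2%, so that the 5 of 12 stem and progenitor genes (41.7%) were near the share of all genes.

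The peak lists, which are made per library, were read next to the deposited test. With DMSO, 76.3% and 86.8% of the erythroid and megakaryocyte regions of EBF1-dTAG_C had a peak in the 2 lists, and 47.4% and 55.3% after dTAG-13. For stem and progenitor regions these shares were 71.9% and 77.2%, then 68.4% and 64.9%, and for all regions 73.5% and 76.3%, then 62.3% and 62.2%. The drop was thus deeper for erythroid and megakaryocyte regions than for all regions, while stem and progenitor regions stayed above all regions after dTAG-13. In EBF1-dTAG_N the erythroid and megakaryocyte shares were 82.5% and 77.5%, then 55.0% and 67.5%. The stem and progenitor shares were 74.0% and 76.7%, then 63.0% and 74.0%, and those of all regions 74.5% and 71.9%, then 63.4% and 70.2%. For stem and progenitor regions, EBF1-dTAG_N dTAG-13 replicate 2 thus stood at the level of DMSO replicate 1.

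Peaks present with DMSO in both libraries and absent after dTAG-13 from both were found for 9 of 38 erythroid and megakaryocyte regions in EBF1-dTAG_C (8.46% of all regions) and for 4 of 57 stem and progenitor regions. In EBF1-dTAG_N there were 7 of 40 and 8 of 73 (10.3% of all regions). The opposite pattern was met at 1 stem and progenitor region in EBF1-dTAG_C (1.38% of all regions), at 3 in EBF1-dTAG_N (3.53%), and at no erythroid and megakaryocyte region. Leaving out 1 list loosens this rule, so a count can then only stay or rise, and a rise does not show that it leaned on that list. Without EBF1-dTAG_C DMSO replicate 1 the stem and progenitor count in that line was 12, and without EBF1-dTAG_C dTAG-13 replicate 1 it was 7. Without EBF1-dTAG_N DMSO replicate 2 the counts of EBF1-dTAG_N were 14 for stem and progenitor and 11 for erythroid and megakaryocyte regions.

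**Figure D2:**
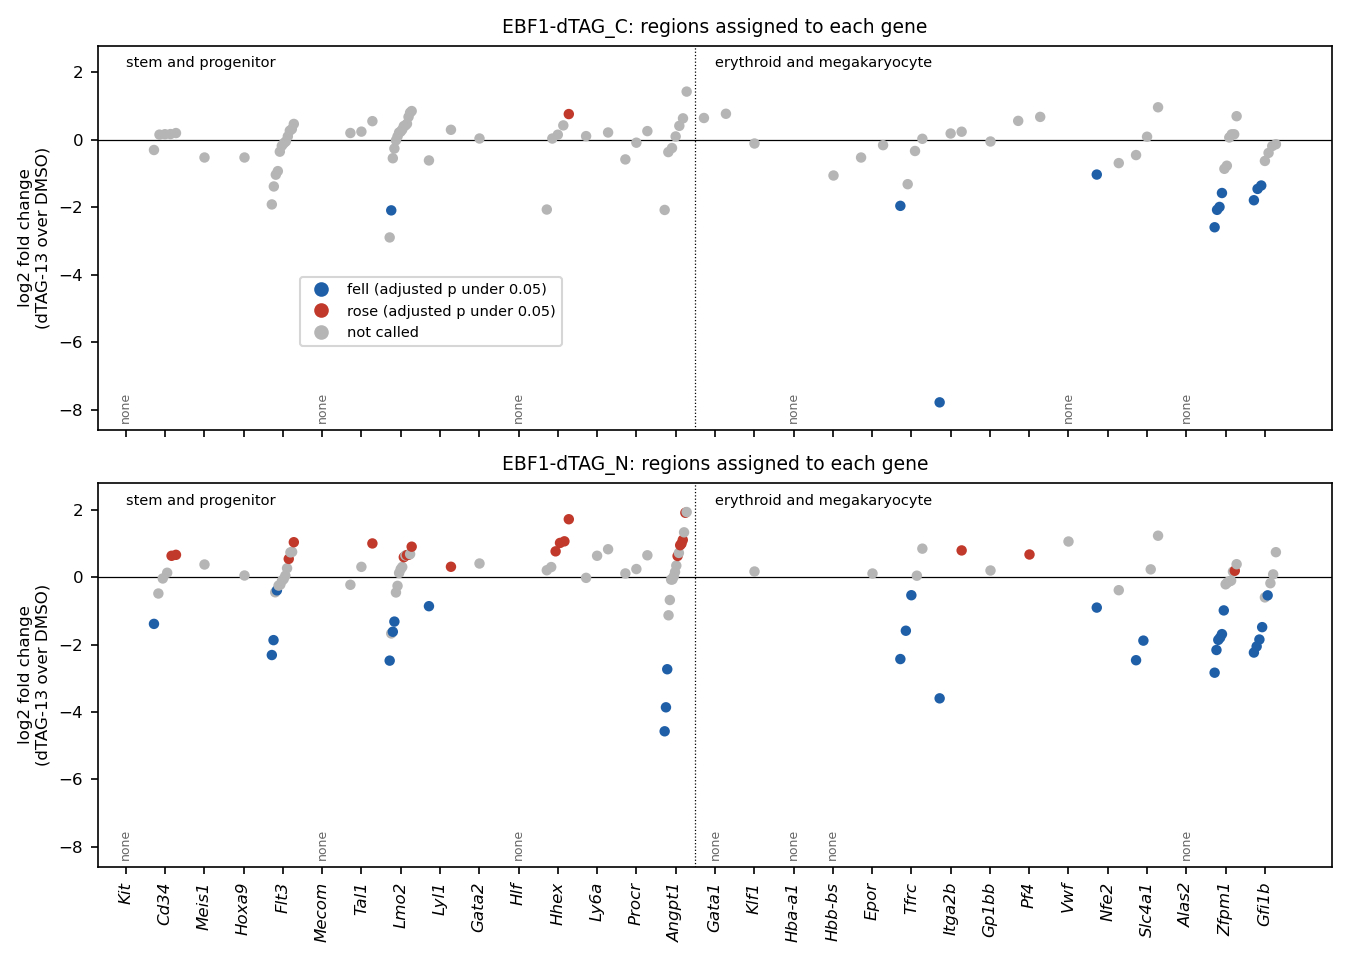
Log2 fold change (dTAG-13 over DMSO, vertical axis) of every region assigned to each of the 30 genes (horizontal axis) in the authors' deposited tables, EBF1-dTAG_C above and EBF1-dTAG_N below; each point is 1 region, blue fell, red rose, grey was not called, and "none" marks genes without a region. Blue points gather at Zfpm1 and Gfi1b in both lines, and red points at Hhex, Angpt1 and Lmo2 in EBF1-dTAG_N.

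Zfpm1 encodes FOG1, the cofactor through which GATA1 acts in red cell and megakaryocyte development. Its strongest loss in EBF1-dTAG_C lay inside the gene, 3.85 kb after the start (chr8:122285757-122286222). Fold enrichment of the peak, which the authors' lists give relative to the background of the same library, was 11.1 and 13.1 in the EBF1-dTAG_C DMSO libraries, with no peak in either dTAG-13 library. In EBF1-dTAG_N it was 14.0 and 14.0 with DMSO and 4.60 and 4.48 after dTAG-13. Both DMSO libraries were thus above both dTAG-13 libraries in each line. In the authors' deposited tables the log2 fold change was -2.59 (adjusted p = 1.36e-05) in EBF1-dTAG_C and -2.16 (adjusted p = 4.18e-137) in EBF1-dTAG_N, that is 6.03 and 4.48 times less accessible.

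A second cluster of falling regions lay beyond the far end of Zfpm1, 6.09 to 7.98 kb outside the gene. There chr8:122345074-122345415 had enrichments of 16.1 and 13.4 with DMSO and 5.43 and 7.88 after dTAG-13 in EBF1-dTAG_C, and of 9.70 and 9.79, then 9.27 and 6.10, in EBF1-dTAG_N. In the authors' deposited tables its log2 fold change was -1.99 (adjusted p = 3.04e-05), and the wider EBF1-dTAG_N region over it had -1.86. The neighbour chr8:122345656-122346021, under the same EBF1-dTAG_N region, fell by 2.07 on the log2 scale in the deposited EBF1-dTAG_C table (adjusted p = 6.43e-05). The third region of the cluster, chr8:122343813-122344093, had deposited log2 fold changes of -1.58 (adjusted p = 0.00111) in the EBF1-dTAG_C table and -1.80 in that of EBF1-dTAG_N. It had no peak in 3 of the 4 dTAG-13 lists, but its enrichment in EBF1-dTAG_N dTAG-13 replicate 2 (7.88) was above both DMSO libraries of that line (5.28 and 5.71). The cluster therefore fell by the deposited test in both lines, and that 1 list does not show it at this region. Of this cluster, 1 more region (chr8:122344544-122344868, log2 fold change -2.84) was tested and fell only in the EBF1-dTAG_N table, where it had a peak in each DMSO list and none after dTAG-13.

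The start of Zfpm1, over the sequence printed above, did not fall. Its enrichment was 13.7 and 11 with DMSO and 18.4 and 20.9 after dTAG-13 in EBF1-dTAG_C, and 9.40 and 9.12, then 14.7 and 18.3, in EBF1-dTAG_N. The dTAG-13 lists thus gave the higher values in both lines. In the authors' deposited tables the log2 fold change was 0.17 (adjusted p = 0.499) in EBF1-dTAG_C and 0.19 (adjusted p = 0.0278) in EBF1-dTAG_N, and the latter was lost with the folds centred (0.02, adjusted p = 0.893). A neighbouring region at the near end of the gene had 0.07 and 0.16 in the deposited tables, uncalled in both. In all, 4 of 10 Zfpm1 regions fell in EBF1-dTAG_C, and 6 of 13 fell and 1 rose in EBF1-dTAG_N, of which 4 falls and no rise passed with the EBF1-dTAG_C degrees of freedom.

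Gfi1b encodes a zinc finger repressor that red cells and megakaryocytes need. A region 8.26 kb before its start (chr2:28630008-28630481) had enrichments of 21.1 and 19.6 with DMSO and 12.0 and 10.9 after dTAG-13 in EBF1-dTAG_C. In EBF1-dTAG_N they were 19.7 and 21.6, then 16.3 and 12.7. A peak was present in all 8 libraries, and the DMSO libraries were the higher ones in both lines. The deposited log2 fold changes were -1.35 (adjusted p = 0.000466) and -1.48 (adjusted p = 6.37e-40) in the authors' tables.

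Of the other Gfi1b regions, 1 lay 9.94 kb beyond its end (chr2:28599170-28599847). Its enrichment was 11.1 and 8.4 with DMSO and no peak and 7.93 after dTAG-13 in EBF1-dTAG_C, and 16.7 and 13.4, then no peak and 5.41, in EBF1-dTAG_N. Its deposited log2 fold changes were -1.45 (adjusted p = 0.000804) and -2.24 (adjusted p = 2.92e-61). Inside the gene, 4.01 kb after the start, chr2:28617836-28618105 was a weak peak (6.22 and 6.42 with DMSO in EBF1-dTAG_C, 5.35 in 1 EBF1-dTAG_N DMSO library) with none in any dTAG-13 list. Its deposited log2 fold changes were -1.79 (adjusted p = 0.0101) and -2.06 (adjusted p = 6.92e-08). The Gfi1b start was open throughout, with enrichments from 18.5 to 24 over the 8 libraries, and its deposited log2 fold change was -0.18 in both tables, uncalled in each. With the folds centred, the start of Gfi1b passed the threshold in EBF1-dTAG_N (log2 fold change -0.35, adjusted p = 0.0212). In EBF1-dTAG_N, 2 further Gfi1b regions fell (log2 fold changes of -1.85 and -0.54 in the deposited table), giving 5 of 9 there and 3 of 7 in EBF1-dTAG_C.

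**Figure D3:**
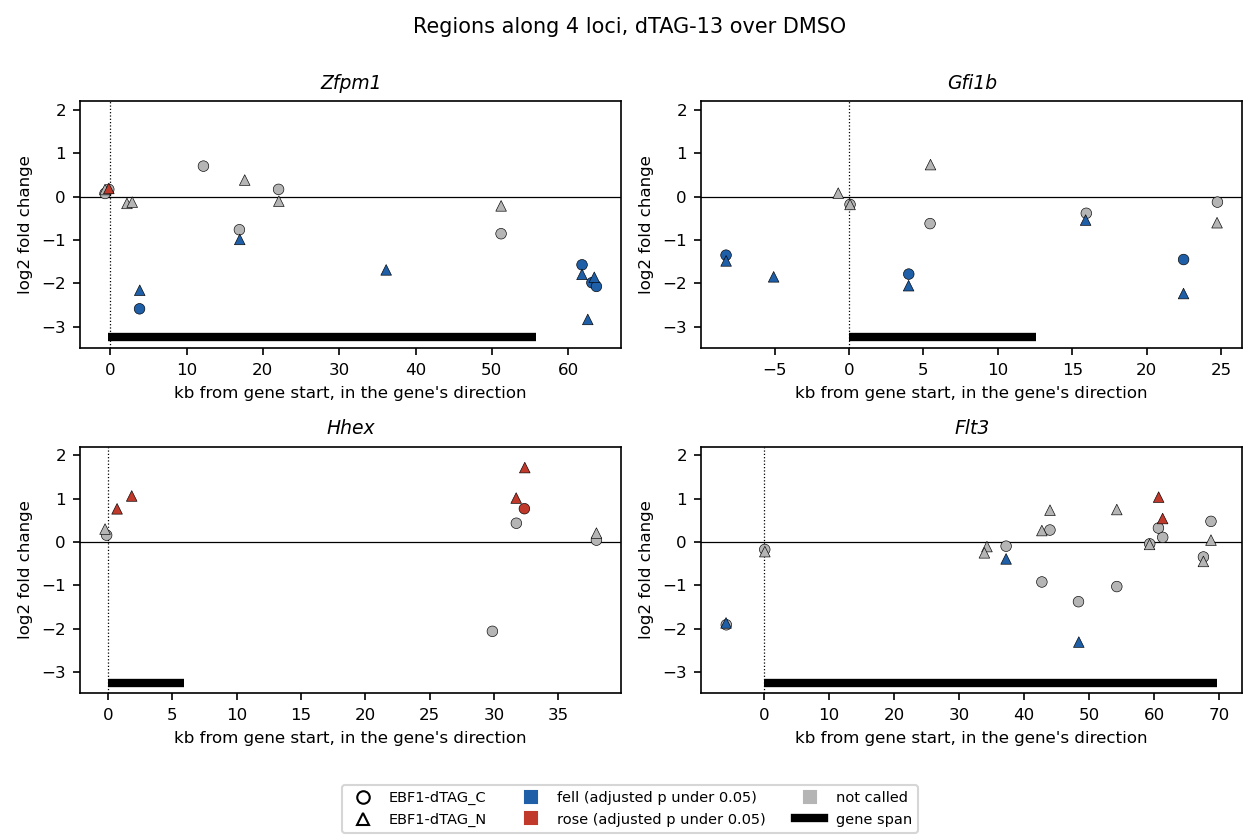
Position of each region (kb from the gene start in the direction of the gene, horizontal axis) and its log2 fold change in the authors' deposited tables (vertical axis) at Zfpm1, Gfi1b, Hhex and Flt3; circles are EBF1-dTAG_C, triangles EBF1-dTAG_N, blue fell, red rose, grey was not called, and the black bar is the gene span. The EBF1-dTAG_C falls at Zfpm1 sit 3.85 kb inside the gene and beyond its far end, whereas its start shows log2 fold changes of 0.17 and 0.19.

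Nfe2 encodes the p45 subunit of NF-E2, a factor of platelet formation and globin expression. The region at one end of its span (chr15:103258298-103258756, centre 124 bp outside) had the highest enrichments among the regions called in EBF1-dTAG_C. They were 28.5 and 28.0 with DMSO and 19.0 and 23.8 after dTAG-13 in EBF1-dTAG_C, and 31.6 and 29.7, then 23.9 and 27.8, in EBF1-dTAG_N. The peak was in all 8 lists, lower after dTAG-13 in both lines. The fall was small, with deposited log2 fold changes of -1.03 (adjusted p = 0.00106) and -0.91 (adjusted p = 1.09e-24) in the authors' tables. A second Nfe2 region inside the gene had -0.69 and -0.39 in the deposited tables and was not called.

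Tfrc encodes the transferrin receptor, the route of iron into erythroblasts and also into other dividing cells. A region 41.5 kb before its start (chr16:32567260-32567614) had enrichments of 14.2 and 16.9 with DMSO and no peak in either dTAG-13 library in EBF1-dTAG_C. In EBF1-dTAG_N it had 25.5 and 25.6, then no peak and 8.02. The peak was thus lost from 3 of 4 dTAG-13 lists, with deposited log2 fold changes of -1.96 (adjusted p = 0.0288) and -2.43 (adjusted p = 2.1e-28) in the authors' tables. The Tfrc start kept enrichments of 21.4 to 25.9 in all 8 libraries, with deposited log2 fold changes of 0.03 and 0.04, both uncalled. In the deposited EBF1-dTAG_N table, 2 more Tfrc regions fell (log2 fold changes of -0.54 and -1.59), while the EBF1-dTAG_C regions they overlap had -0.33 (adjusted p = 0.597) and -1.31 (adjusted p = 0.0692).

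Itga2b encodes CD41, the integrin alpha chain of platelets, which early progenitors also carry. Its region 8.01 kb inside the gene (chr11:102461754-102461994) had a peak in 1 EBF1-dTAG_C list, DMSO replicate 2 (9.02). In EBF1-dTAG_N it had 19.6 and 14.8 with DMSO and no peak after dTAG-13. It was a weak region in EBF1-dTAG_C (mean abundance 1.09 log2 CPM). Its deposited log2 fold change there was -7.78 (adjusted p = 0.00443), given without a fold since the tables hold no value per library. In EBF1-dTAG_N the deposited log2 fold change was -3.60 (adjusted p = 7.52e-24) at a mean abundance of 2.92 log2 CPM. Another Itga2b region rose in EBF1-dTAG_N (0.79, adjusted p = 0.00581 in the deposited table) and was uncalled in EBF1-dTAG_C (0.24).

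The remaining red cell and platelet genes had no call in EBF1-dTAG_C. Slc4a1, which encodes the anion exchanger band 3 of the red cell membrane, had 2 of 4 regions fall in EBF1-dTAG_N (log2 fold changes of -2.47 and -1.88 in the deposited table), and neither overlapped a tested EBF1-dTAG_C region. The region 0.69 kb beyond Pf4, which encodes platelet factor 4, rose in the deposited EBF1-dTAG_N table (0.70, adjusted p = 0.0006). Its enrichment did not follow, with 21.3 and 20.7 under DMSO and 12.8 and 18.8 after dTAG-13 in that line. Klf1, an activator of the adult globin genes, carried a strong region 1.31 kb inside the gene with enrichments of 22.0 to 31.7 in all 8 libraries. Its deposited log2 fold changes of -0.08 (adjusted p = 0.842) and 0.17 (adjusted p = 0.0994) were not called.

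Gata1, the leading factor of both lineages, had 2 weak regions in the EBF1-dTAG_C table (0.65 and 0.78 on the log2 scale, uncalled) and none in that of EBF1-dTAG_N. Hbb-bs, an adult beta globin gene, had 1 uncalled region in EBF1-dTAG_C (-1.04, adjusted p = 0.519 in the deposited table) with peaks in both DMSO lists of that line and in no other. Its near-identical neighbour can share reads with it, so that value is uncertain. Hba-a1, an alpha globin gene with a near-identical copy of its own, and Alas2, the first enzyme of haem synthesis in red cells, had no region in either table. Epor, the erythropoietin receptor gene, had regions with deposited log2 fold changes of -0.52 and -0.16 in EBF1-dTAG_C and 0.12 in EBF1-dTAG_N, none called. Gp1bb, a subunit of the platelet receptor for von Willebrand factor, had 1 region (-0.02 and 0.20), and Vwf itself 1 region in EBF1-dTAG_N (1.07, adjusted p = 0.071 in the deposited table) and none in EBF1-dTAG_C.

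Among stem and progenitor genes, Hhex stood out by rising in both lines. Hhex encodes a homeobox factor of early progenitors. A region 32.4 kb after its start and 26.5 kb outside the gene (chr19:37466981-37467409) had enrichments of 7.45 and 7.19 with DMSO and 13.2 and 10.4 after dTAG-13 in EBF1-dTAG_C. In EBF1-dTAG_N it had 6.68 and 6.84, then 12.0 and 12.7. All 4 dTAG-13 libraries lay above all 4 DMSO libraries. The deposited log2 fold changes were 0.77 (adjusted p = 0.0418) and 1.72 (adjusted p = 1.3e-16) in the authors' tables. With the folds centred, the EBF1-dTAG_C value was 0.68 and no longer passed (adjusted p = 0.07). The difference between the lines at this region had an unadjusted p of 0.0062 in an approximate test and did not pass after adjustment over all paired regions.

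Of the Hhex regions in the deposited EBF1-dTAG_N table, 4 of 6 rose, with log2 fold changes of 0.76 to 1.72, and none fell; the one at 0.76 no longer passed with the folds centred (adjusted p = 0.0971). The start of Hhex, printed above, had enrichments of 13.4 to 15.3 in the EBF1-dTAG_C libraries and 7.19 to 10.6 in those of EBF1-dTAG_N. Its deposited log2 fold changes, 0.15 and 0.30, were not called.

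Lmo2 encodes the bridging protein of the TAL1 complex and was the stem and progenitor gene with a fall in both lines. The region chr2:103917403-103917849, 40.3 kb outside the gene, had enrichments of 18 and 15.6 with DMSO and 3.68 and no peak after dTAG-13 in EBF1-dTAG_C. In EBF1-dTAG_N it had 18.3 and 19.8, then 5.90 and 6.88. The DMSO libraries were the higher ones in both lines, with no overlap. The log2 fold changes were -2.09 (adjusted p = 0.00268) and -1.32 (adjusted p = 2.32e-09) in the authors' deposited tables. Other regions of Lmo2 moved in both directions in EBF1-dTAG_N, where 3 of 15 fell and 4 rose, with log2 fold changes from -2.48 to 0.90 in the deposited table. With the folds centred, 2 of these 4 rises no longer passed (adjusted p = 0.0599 and 0.138). The fall at chr2:103941110-103941497 (-1.62, adjusted p = 7.96e-13 in the deposited table), 16.6 kb outside the gene, had a peak in all 4 DMSO lists and in no dTAG-13 list, while its EBF1-dTAG_C value (-0.54) was not called. The 3 regions inside the gene were not called in either line, with deposited log2 fold changes of 0.10 to 0.41 (EBF1-dTAG_C) and 0.12 to 0.68 (EBF1-dTAG_N).

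**Figure D4:**
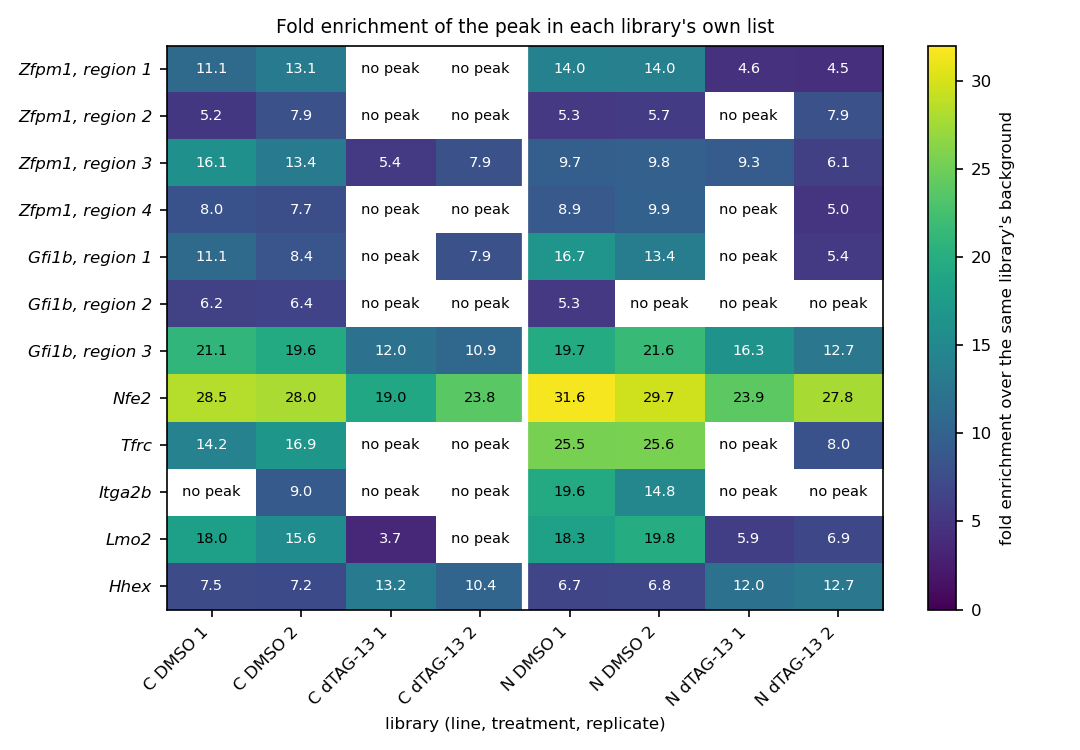
Fold enrichment of the peak over the same library's background, as the authors' lists give it (colour and number; white, no peak in that list), in each of the 8 libraries (columns) for the 12 regions called in EBF1-dTAG_C (rows; regions of 1 gene numbered by position on the chromosome). The Hhex row is highest in the 4 dTAG-13 libraries, and the Gfi1b region 3, Nfe2 and Lmo2 rows are lower after dTAG-13 in both lines.

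The other stem and progenitor genes with calls had them in EBF1-dTAG_N alone. Angpt1, which encodes a ligand of the receptor TIE2 in the stem cell niche, had 18 regions there and 7 in EBF1-dTAG_C. Its lowest value was at chr15:42362002-42362289, 62.5 kb outside the gene, with enrichments of 20.4 and 16.8 with DMSO and no peak after dTAG-13 in EBF1-dTAG_N. The EBF1-dTAG_C lists had 5.21 and 10.5, then no peak in either. Peaks were thus lost from all 4 dTAG-13 lists, but the deposited log2 fold change was -4.57 (adjusted p = 1.11e-15) in EBF1-dTAG_N and -2.08 (adjusted p = 0.116) in EBF1-dTAG_C, where it was not called. Of the Angpt1 regions, 3 fell and 5 rose in the deposited EBF1-dTAG_N table, the risen ones by 0.63 to 1.91 on the log2 scale. Of these rises, 2 (0.63 and 0.95) no longer passed with the folds centred (adjusted p = 0.192 and 0.0962) or with the EBF1-dTAG_C degrees of freedom (0.0936 and 0.0724). The other falls at Angpt1, with deposited log2 fold changes of -3.86 and -2.73, were 92.7 and 94.9 kb outside the gene, near the limit of 100 kb. The nearest regions beyond that limit were not called, with 0.54 at 119 kb from Angpt1 in EBF1-dTAG_N and 0.01 at 116 kb from Meis1 in EBF1-dTAG_C.

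Flt3, a cytokine receptor of multipotent and lymphoid progenitors, had 3 falls and 2 rises among 14 regions in EBF1-dTAG_N, with log2 fold changes from -2.31 to 1.03 in the deposited table. With the EBF1-dTAG_C degrees of freedom 2 of the falls no longer passed (adjusted p = 0.0763 and 0.0703), and with the folds centred 1 of the rises did not (adjusted p = 0.0591). The lowest of them, 48.4 kb inside the gene (chr5:147351936-147352199), had enrichments of 7.75 and 9.25 with DMSO and no peak after dTAG-13. In EBF1-dTAG_C none of 12 Flt3 regions was called, with deposited log2 fold changes from -1.91 to 0.47. The start of Flt3 was open in all 8 libraries (9.76 to 22.9) and not called in either table.

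Cd34 encodes a surface sialomucin of progenitors, and the regions assigned to it all lay outside the gene. In EBF1-dTAG_N 1 of 6 fell (-1.39, adjusted p = 3.61e-05 in the deposited table) and 2 rose (0.63 and 0.66), and none of 5 was called in EBF1-dTAG_C. Lyl1 encodes a helix-loop-helix factor related to TAL1. Its start rose slightly in EBF1-dTAG_N (0.31, adjusted p = 1.43e-06 in the deposited table) and had nearly the same uncalled value in EBF1-dTAG_C (0.30, adjusted p = 0.0581). With centring the EBF1-dTAG_N rise was 0.14 and did not pass. A second Lyl1 region, 2.36 kb after the start, fell by 0.86 in the deposited EBF1-dTAG_N table and had -0.61 (adjusted p = 0.155) in EBF1-dTAG_C. Tal1, a master factor of blood formation, had 1 of 3 regions rise in EBF1-dTAG_N (1.00, adjusted p = 0.00345 in the deposited table).

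Nothing was called at 5 further stem and progenitor genes with regions. Meis1, Hoxa9 and Gata2, which encode stem cell transcription factors, had 1 region each per line, with deposited log2 fold changes of -0.51, -0.51 and 0.07 (EBF1-dTAG_C) and of 0.39, 0.05 and 0.43 (EBF1-dTAG_N). Ly6a (Sca-1) had deposited values of 0.11 and 0.22 in EBF1-dTAG_C, and its 3 EBF1-dTAG_N regions ranged from -0.02 to 0.83. Procr, the endothelial protein C receptor gene, had -0.58 to 0.26 and 0.11 to 0.65. Kit, the stem cell factor receptor gene, Mecom, and Hlf, both of which encode stem cell transcription factors, had no region in either table and no peak within the gene in any of the 8 lists. The region nearest to Kit was 232 kb away in EBF1-dTAG_C and 419 kb in EBF1-dTAG_N.

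The calls of both lines were then set side by side. Overlap by at least 1 bp paired 84 member regions. All 11 regions that fell in EBF1-dTAG_C overlapped a region that fell in EBF1-dTAG_N, as did 98.9% of all paired regions that fell there, so this recurrence is that of the whole table (7.98% of all 43139 pairs fell in both lines). The risen Hhex region rose in both (0.304% of all pairs), and no pair was called in opposite directions. Of the 22 member pairs that fell in EBF1-dTAG_N, 11 fell in EBF1-dTAG_C too, against 47.1% of all such pairs. Of the 18 member pairs that rose in EBF1-dTAG_N, 1 rose in EBF1-dTAG_C too, against 1.39% of all such pairs. Both counts are near the shares of the whole table. At Zfpm1, 1 EBF1-dTAG_N region (chr8:122345065-122346052) overlapped 2 EBF1-dTAG_C regions and so stands in 2 pairs. Counted by EBF1-dTAG_N region, 10 falls overlapped a fall in EBF1-dTAG_C, 11 an uncalled region and 8 no region. Whether calls made in 1 line only differ between the lines was tested with the approximate test. No pair passed after adjustment, neither among the 84 (6 at an unadjusted p under 0.05) nor among all pairs (1748, or 4.05%). A test that passes no pair of the whole table cannot decide this, and no agreement between the lines is read from it. The log2 fold changes of the 84 pairs had Pearson's r of 0.80 and Spearman's rho of 0.75, and all pairs 0.84 and 0.65. These describe regions, which share their libraries and are not independent. The sign was the same in 66 of the 84 pairs (78.6%) and in 76.7% of all pairs.

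**Figure D5:**
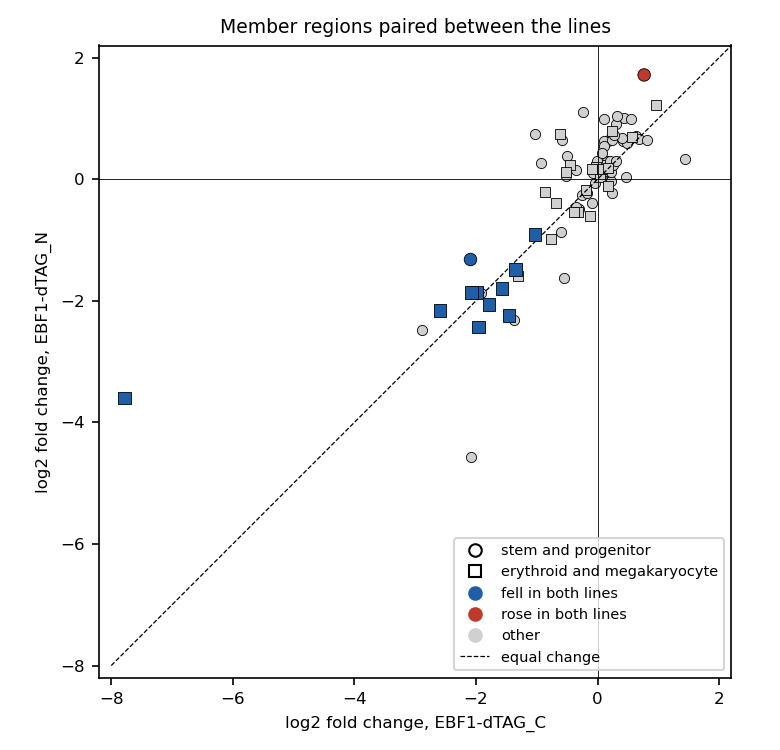
Log2 fold change of the 84 paired member regions in EBF1-dTAG_C (horizontal axis) and EBF1-dTAG_N (vertical axis), from the authors' deposited tables; circles are stem and progenitor, squares erythroid and megakaryocyte regions, blue fell and red rose in both lines, and the dashed line marks equal change. The blue points lie below 0 on both axes and the Hhex point is the red one, at 0.77 and 1.72.

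At the starts of members with a promoter window, 7 regions were tested in each table. None fell in the authors' deposited edgeR test, also at an unadjusted p under 0.05. Members without a window are left out here. Among them, the Nfe2 region at one end of its span fell in both lines (log2 fold changes of -1.03 and -0.91). The regions near an end of Lmo2 and Angpt1 were not called. Over all genes 1.34% of regions at a start fell in EBF1-dTAG_C and 4.24% in EBF1-dTAG_N, so 7 starts do not set the members apart. With the folds centred, the Gfi1b start fell in EBF1-dTAG_N (-0.35, adjusted p = 0.0212). Those of Lyl1 and Zfpm1 rose in EBF1-dTAG_N as deposited, as did 32.3% of all start regions, and neither passed with the folds centred. Of the fallen erythroid and megakaryocyte regions, 3 of 10 had their centre inside the gene in EBF1-dTAG_C, as did 6 of 18 in the other line, against 54.5% and 54.1% of all regions of the tables. The share inside a gene among all fallen regions is not given here, so this does not set the members apart from other falls. The fallen erythroid and megakaryocyte regions had a median abundance of 4.88 log2 CPM in EBF1-dTAG_C against 2.11 log2 CPM for the uncalled ones. In EBF1-dTAG_N it was 4.04 against 2.63 log2 CPM. The part of abundance in these counts was not tested.

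Longer lists of other genes of the same lineages gave another order. Among 29 more stem and progenitor genes, 18 of 144 regions fell and none rose in EBF1-dTAG_C by the deposited edgeR test (6 were higher at an unadjusted p under 0.05), and 43 of 156 fell and 34 rose in EBF1-dTAG_N. Among 39 more erythroid and megakaryocyte genes with coordinates, 5 of 82 fell and none rose in EBF1-dTAG_C (12 were higher at an unadjusted p under 0.05), and 17 of 80 fell and 14 rose in EBF1-dTAG_N. In EBF1-dTAG_C 12.5% and 6.10% of these regions fell (6.62% of all regions), and 27.6% and 21.2% did in EBF1-dTAG_N (18.5% of all regions), so the longer erythroid and megakaryocyte list stood near all regions. Msi2, an RNA-binding regulator of stem cells, held 8 of the 18 falls in EBF1-dTAG_C and 19 of the 43 in EBF1-dTAG_N. Erg, an ETS factor of stem cells, had its most strongly supported fall at -2.98 and -3.09 on the log2 scale in the deposited tables. Gp5, a platelet membrane glycoprotein gene, had 2 of its 3 regions fall in EBF1-dTAG_C and all 3 in EBF1-dTAG_N. Car2, a carbonic anhydrase gene, had 2 of 13 and 3 of 15 regions fall.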

How the data were processed

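The submitters' processing notes name, with no order or settings, edgeR 3.32.0, MACS2 2.2.7.1, Bowtie2 2.3.5.1, deepTools 3.3.2 and SAMtools 1.10, and the GRCm38 (mm10) build; the sources used here give no read filter, Tn5 shift or library scaling. The authors deposited 1 peak list per library, with a score, a fold enrichment over the same library's background and −log10 p-values and q-values per peak; these served only to describe a list. Per line there is 1 table deposited by the authors: each region has its log2 fold change, log2 CPM, F (a score), p-value and Benjamini-Hochberg adjusted p-value, without values per library, so nothing was refitted and regions carry no SD. The depth in reads is unknown.

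Repeated intervals were counted once (8 in EBF1-dTAG_C, 12 in EBF1-dTAG_N). The adjusted p-values were recomputed from the p-values without difference, and the sign of the fold was checked on the peak lists: 92.6% and 96.7% of regions with peaks only in both DMSO lists had a negative one. The denominator degrees of freedom that turn F into the deposited p-value came to 11.2 (EBF1-dTAG_C) and 110386 (EBF1-dTAG_N). An approximate standard error, the absolute log2 fold change over the square root of F, served for centring on the table's median and for the difference between lines. The labels number 2 replicates per group and do not say that they are separate cultures, so the spread behind the p-values may be technical. Regions and peaks overlapped by at least 1 bp. Inside 2 EBF1-dTAG_C lists (DMSO replicate 1 and dTAG-13 replicate 2) the peak names carry other replicate numbers than the labels, which were followed.

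Every member was counted. Named were, per line, the called region with the smallest deposited adjusted p-value, called regions changed 2-fold or more, and regions within 1 kb of a gene end. Promoter windows and gene spans come from RefSeq (GRCm38.p6); Lmo2, Ly6a, Angpt1, Vwf, Nfe2 and Slc4a1 had no window. The members, lists and tests were chosen with earlier results of these data known. Alternatives were the centring, the EBF1-dTAG_C degrees of freedom, an adjusted p under 0.01, at least 2-fold, 20 kb, regions above the median abundance, peaks with −log10 q of at least 5, an overlap of 50% and each library left out. The scripts ran in Python 3.11.15 with pandas 2.3.3, numpy 2.4.6 and scipy 1.17.1 and were tested on simulated data.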

Additional observations from a re-analysis of the deposited data

How the results depend on the processing

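The count of erythroid and megakaryocyte falls in EBF1-dTAG_C stayed within 1.5 times of the reported one under the alternatives run for it (centring, adjusted p under 0.01, at least 2-fold, 20 kb, abundance). Counts that moved by more were these. With the folds centred, 0 stem and progenitor regions rose in EBF1-dTAG_C and 12 in EBF1-dTAG_N. At an adjusted p under 0.01, at least 2-fold, or within 20 kb, 0 rose in EBF1-dTAG_C, and above the median abundance, where p-values were adjusted over fewer regions, 2 did. Within 20 kb, 0 stem and progenitor regions fell in EBF1-dTAG_C and 6 in EBF1-dTAG_N. Above the median abundance 5 stem and progenitor and 11 erythroid and megakaryocyte regions fell in EBF1-dTAG_N. At least 2-fold left 6 stem and progenitor and 0 erythroid and megakaryocyte rises in EBF1-dTAG_N. The 20 kb and abundance settings leave out regions, so a lower count there need not mean a change at any region. The cause was not tested. With 1 library left out, which can only keep or raise these counts, regions with peaks in DMSO lists only were counted again. They numbered 5 to 12 (stem and progenitor) and 9 to 13 (erythroid and megakaryocyte) in EBF1-dTAG_C, and 8 to 14 and 7 to 11 in EBF1-dTAG_N. With centring, all 40 named falls of both tables stayed called. Of the 23 rises, 14 did, all in EBF1-dTAG_N. No paired analysis was possible because the deposited tables hold no values per library and the counts of peaks come from no test.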
